A study of Mus musculus with 24 samples.

Results

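A set of 882 chromatin regions was open in mouse skin cells in the first week after a partial-thickness wound, was still open 80 days after it, and was in no list of unwounded cells or of the full-thickness wound at day 80. The regions were chosen by presence in 8 deposited peak lists. Peaks of all lists that overlapped were joined into 63188 regions, and a list held a region when a peak of it overlapped that region by at least 1 bp. Kept were the regions of the day 80 partial-thickness list that were also in the day 3 or the day 7 partial-thickness list, and in none of 4 lists: hair follicle stem cells at day 0, epidermal stem cells at day 0, epidermal stem cells at day 80, and the full-thickness wound at day 80. They were 1.40% of all regions, and 7.85% of the 11234 regions that an early partial-thickness list held and no unwounded list did. The choice used presence in 7 of the lists, so presence and strength in those lists are a description of the set. The day 7 full-thickness list was left free, and position and promoter sequence took no part either. In that free list lay 638 of the 882 regions, so their limitation to the partial-thickness wound applies to day 80 only. The rest of the 11234 regions were divided by the day 80 wound lists. Regions called kept after both wounds (668) were in both lists, and those kept after neither (8419) were in none. Another 1265 were in the day 80 full-thickness list and not in the partial-thickness one. No class required an early full-thickness peak, so kept refers to an early partial-thickness peak.

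ATAC-seq finds open chromatin with a transposase, an enzyme that cuts DNA where nucleosomes and other proteins leave it free. When the epidermis is lost, stem cells of the hair follicle leave their niche, move up to cover the wound and take on an epidermal fate. During this move stress-induced transcription factors, among them the Fos and Jun proteins that pair as AP-1, open enhancers that resting stem cells keep shut. Some of those sites are known to stay open after skin has healed, which is called epigenetic memory.

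The series holds 24 samples in 8 groups, all of skin from the same cross of CD1 with C57BL/6J mice, and 1 peak list stands for each group. Cells labelled as the wound-responsive progeny of hair follicle stem cells came from partial-thickness wounds, made with a Dremel tool by the group's name, in Krt19-CreER/R26-YFP mice. They were taken on day 3 (n = 3), on day 7 (n = 2) and on day 80 (n = 3). Cells labelled as the wound-responsive progeny of epidermal stem cells came from full-thickness punch wounds in Sox9-CreER/R26-YFP mice, taken on day 7 (n = 3) and on day 80 (n = 2). The unwounded groups, again of Krt19-CreER/R26-YFP mice, were hair follicle stem cells of day 0 (n = 4), epidermal stem cells of day 0 (n = 4) and epidermal stem cells of day 80 (n = 3). In each strain the Krt19 or Sox9 promoter drives a tamoxifen-dependent Cre recombinase that switches on the YFP reporter, so cells that never used that promoter are not marked. Wound type, Cre driver and labelled cell of origin change together between the partial-thickness and the full-thickness groups and cannot be told apart. Neither the age of the mice nor the sort gates could be read from the labels. The peaks of the day 0 epidermal list carry a name tag for day 7, which stands against the group the list was deposited under. Regions that fail the rule by that list alone are counted among those just outside it, near the end of these results.

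The lists were of like length, between 29365 and 37214 peaks, and of unlike stringency. The lowest −log10 p that the authors kept was, for the partial-thickness wound, 39.7 on day 3, 40.19 on day 7 and 21.04 on day 80. It was 32.24 at day 7 and 7.98 at day 80 of the full-thickness wound, against 17.3 for unwounded hair follicle cells, 13.52 for day 0 epidermis and 7.86 for day 80 epidermis. Every value of a peak given here is the authors' and belongs to its own list. Depth is unknown, and groups with a single list each allow no test between them. Shares carry exact 95% intervals after Clopper and Pearson, which reflect nothing beyond counting error. A weak peak can stand for a region open in few cells or for one slightly open in many, which cannot be told apart in pooled cells. Of the 8 markers of epidermal stem cells listed for this work, the day 80 partial-thickness list held a region at 7, with Ly6a at 0 in all 8 lists. Of the 10 hair follicle stem cell markers it held a region at 8, as did the unwounded day 80 epidermal list, with Lgr5 and Foxc1 at 0 in both, while the partial-thickness lists of days 3 and 7 held regions at all 10. At markers of other cells the day 80 partial-thickness list had 6 regions for immune, 5 for fibroblast, 9 for endothelial, 8 for melanocyte and 1 for muscle genes, against 6, 5, 6, 7 and 1 in the unwounded day 80 epidermal list.

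Sequence was available for promoter windows of 300 bases, from 250 before to 50 after a RefSeq start site in GRCm38.p6, the assembly of mm10. Day 80 peaks of 54 of the 882 regions overlapped 62 such windows of 57 genes, and 32 windows held the summit, the base at which the peak is highest. Shown here are the windows of the 4 highest day 80 scores among those that held the summit, because they place the retained opening on the sequence itself. The 21 bases centred on the day 80 summit are in capitals, and each window reads 5′ to 3′ along its gene.
Gm36472, chr1:93115032-93115331, plus strand: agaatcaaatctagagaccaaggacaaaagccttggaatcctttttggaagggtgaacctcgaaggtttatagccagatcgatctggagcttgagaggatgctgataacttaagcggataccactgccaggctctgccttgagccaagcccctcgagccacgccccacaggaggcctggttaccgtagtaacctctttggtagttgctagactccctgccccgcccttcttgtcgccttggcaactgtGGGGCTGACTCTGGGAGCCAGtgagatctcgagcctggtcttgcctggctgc
Scamp5, chr9:57468011-57468310, minus strand: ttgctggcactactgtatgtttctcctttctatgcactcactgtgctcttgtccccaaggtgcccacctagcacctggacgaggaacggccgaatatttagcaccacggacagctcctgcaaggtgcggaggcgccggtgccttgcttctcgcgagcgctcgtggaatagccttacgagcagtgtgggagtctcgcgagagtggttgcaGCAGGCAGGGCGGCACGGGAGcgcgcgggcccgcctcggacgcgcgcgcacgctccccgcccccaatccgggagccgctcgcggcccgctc
Gm30246, chr14:76780461-76780760, plus strand: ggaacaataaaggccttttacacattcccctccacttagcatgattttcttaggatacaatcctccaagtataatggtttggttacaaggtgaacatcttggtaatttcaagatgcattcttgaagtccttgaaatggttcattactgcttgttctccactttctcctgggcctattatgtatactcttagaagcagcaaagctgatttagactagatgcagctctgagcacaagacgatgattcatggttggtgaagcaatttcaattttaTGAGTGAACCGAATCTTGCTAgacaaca
Edc3, chr9:57708319-57708618, plus strand: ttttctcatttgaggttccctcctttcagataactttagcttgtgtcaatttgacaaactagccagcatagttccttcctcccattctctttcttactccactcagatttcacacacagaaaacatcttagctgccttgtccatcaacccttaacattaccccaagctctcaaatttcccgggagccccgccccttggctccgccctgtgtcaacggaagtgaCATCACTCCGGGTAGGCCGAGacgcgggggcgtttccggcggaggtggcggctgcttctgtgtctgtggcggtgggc
The summit lay 8 bases after the start site of the predicted gene Gm36472 and 31 bases before that of Scamp5, a secretory carrier membrane protein. It lay 32 bases after the start of the predicted gene Gm30246 and 17 before that of Edc3, a factor that activates removal of the mRNA cap.

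The Gm36472 peak had a −log10 p of 54.9 at day 7 and 66.2 at day 80 after the partial-thickness wound, with no peak at day 3, and 35.7 at day 7 after the full-thickness wound. The Scamp5 peak had 65.1, 66.5 and 57.4 at days 3, 7 and 80 after the partial-thickness wound and 50.2 at day 7 after the full-thickness wound. The Gm30246 peak had 81.3, 96.5 and 54.8 on the same partial-thickness days and 84.6 after the full-thickness wound, and the Edc3 peak had 48.1, 55.6, 48.0 and 50.05 in that order. All 4 promoters were thus also peaks at day 7 of the full-thickness wound, and none was one at its day 80.

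The AP-1 motif was searched as TGANTCA, which reads the same on both strands. Of the 21 motifs searched, it had the widest gap between these windows and all promoters. It was in 13 of the 62 windows, or 20.97% (11.7 to 33.2%). It was in 15.5% of the 58 windows at regions kept after both wounds, 15.7% of 389 windows at regions kept after neither wound, 5.61% of 10951 windows at any day 80 partial-thickness peak and 7.81% of all 32851 windows. The intervals of the 3 wound classes overlap each other. That of the 62 windows, which lie at 54 of the 882 regions, lies above both broad backgrounds. So does that of windows at regions kept after neither wound (12.2 to 19.7%). Some of the 62 windows overlap each other, which the interval does not allow for. With only the first window of each gene the share was 21.05% of 57. The interval of regions kept after both wounds (7.35 to 27.4%) includes the share of all promoters. The higher share was thus not particular to the set. The median GC content was 55.2% in their windows, against 61.3% in windows of any day 80 partial-thickness peak and 52.7% in all windows.

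The sites themselves are shown with 10 bases on either side, or up to the end of the window where that is nearer, in the direction of the gene and with the motif in capitals, because they are the letters behind that count.
Gm30246, chr14:76780700-76780706, plus strand: cacaagacgaTGATTCAtggttggtga
4930430J02Rik, chr9:57390925-57390931, plus strand: ggagcagaaaTGACTCAaagacaattg
Gm41497, chr16:92245921-92245927, plus strand: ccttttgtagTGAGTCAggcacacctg
Fbp2, chr13:62858441-62858447, minus strand: tccggctatcTGAGTCAcgtggggtgg
2010204K13Rik, chrX:7423095-7423101, minus strand: gctcattgaaTGACTCAcgctcaggaa
Gm12273, chr11:61950837-61950843, plus strand: tctagcaacaTGAGTCAcggtttggaa
Gm12273, chr11:61950856-61950862, plus strand: gtttggaactTGACTCActtttgcatc
LOC115486439, chr5:143975318-143975324, plus strand: gctgagaaaaTGACTCAgagagaggtt
Gm32348, chr12:85569852-85569858, plus strand: ttcacactgcTGATTCAgaacgctgac
Gm32348, chr12:85569865-85569871, plus strand: ttcagaacgcTGACTCAgc
Fgd4, chr16:16560293-16560299, minus strand: ccaagaagccTGAGTCAcacacttcta
Tmcc3, chr10:94550905-94550911, plus strand: aagtccagcgTGAGTCAccaccagcag
Tex46, chr4:136610416-136610422, plus strand: gagttgcttaTGAATCAgaggagcgga
Mgst2, chr3:51661127-51661133, plus strand: ccaatcctgtTGACTCAactctgttgc
A window pair of Tmcc3 shares 1 site, and Gm12273 and Gm32348 have a pair of sites each, so the 14 sites belong to 12 genes. The cytosine form, TGACTCA or its other strand TGAGTCA, made up 11 of them. Of the 14 sites, 10 lay within 50 bp of the day 80 summit: 7 and 12 bp for the pair at Gm12273, 8 bp for Fgd4, 18 bp for Tex46, 27 bp for Tmcc3, 35 and 22 bp for the pair at Gm32348, 40 bp for Gm30246, 43 bp for Mgst2 and 49 bp for 4930430J02Rik. Distance to the summit was not counted for other motifs or other classes, so this count has no background beside it. Fgd4 encodes an activator of the small GTPase Cdc42, and Mgst2 a microsomal glutathione transferase. The Fgd4 peak had a −log10 p of 121, 85.2 and 23.1 at days 3, 7 and 80 after the partial-thickness wound and 59.0 at day 7 of the full-thickness wound. The Mgst2 peak had 64.9, 71.9 and 21.2 on those days and 67.1 after the full-thickness wound. Ranked within each list on a scale where 100 is the highest, the Fgd4 peak stood at 81.7 on day 3, 56.7 on day 7 and 6.27 on day 80, and the Mgst2 peak at 40.8, 44.95 and 0.409. Both were near the bottom of the day 80 list, and of the 2 only the Fgd4 peak had stood above rank 50 early. A match of letters is a description and not a bound site.

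**Figure D1:**
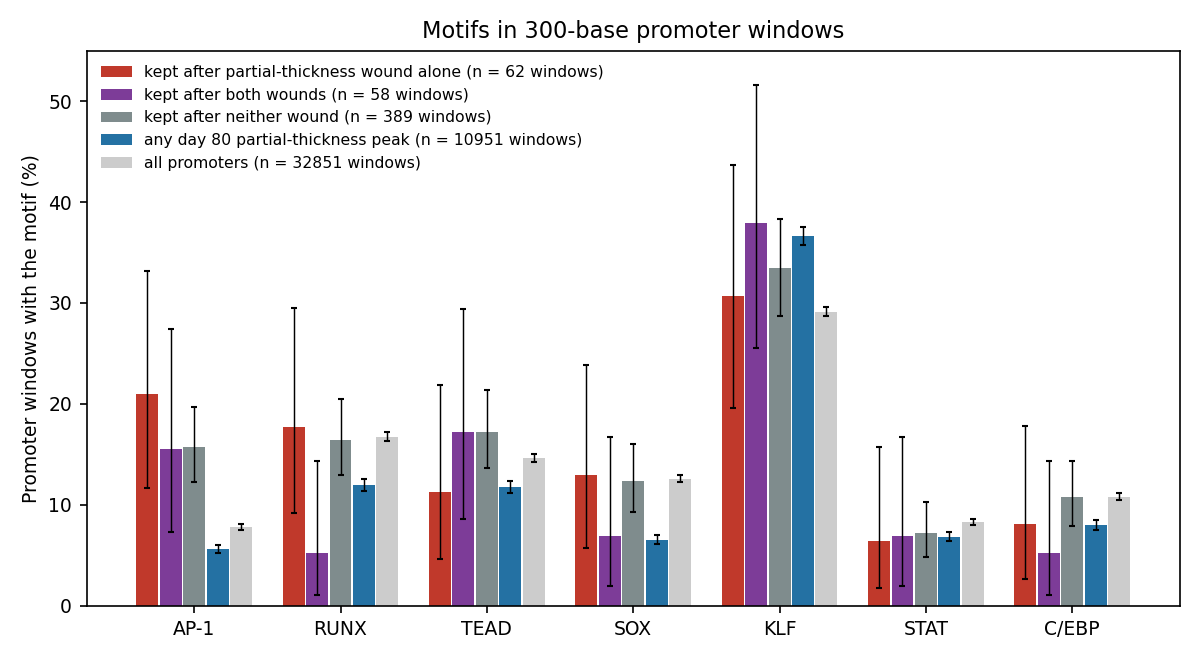
Share of 300-base promoter windows (%) that hold each of 7 motifs on either strand, for windows at regions kept after the partial-thickness wound alone, after both wounds, after neither wound, at any day 80 partial-thickness peak, and for all promoters; bars are shares and whiskers exact 95% intervals of counting error. For AP-1 the bar of the first class stands at 20.97%, against 5.61% for any day 80 peak and 7.81% for all promoters, and for the other 6 motifs its interval includes the share of all promoters.

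The other motifs in the plot of motif shares were spread more evenly. RUNX letters (TGTGGT) were in 17.7% of the 62 windows and 16.8% of all promoters, and TEAD letters (GGAATG) in 11.3% and 14.7%. SOX letters (ACAATG) were in 12.9% and 12.6%, and KLF letters (GGGNGTG) in 30.6% and 29.2%. STAT letters (TTCNNNGAA) were in 6.45% and 8.30%, and C/EBP letters (TTGCNNAA) in 8.06% and 10.8%. Of the motifs not plotted, E-box letters (CAGCTG) were in 13 of the 62 windows (20.97%, 11.7 to 33.2%) and 16.3% of all promoters. FOX letters (TGTTTAC) were in 6.45% (1.79 to 15.7%) and 3.65%. Both intervals include the share of all promoters. Each motif was searched on both strands.

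At day 80 the 882 regions were among the weaker peaks. Their median −log10 p was 56.5 at day 3 (717 regions), 53.7 at day 7 (672 regions) and 27.1 at day 80 (882 regions) after the partial-thickness wound, and 51.7 at day 7 after the full-thickness wound (638 regions). Over all regions of these lists the medians were 73.6, 78.1, 46.7 and 62.0 in the same order. Since the lists differ in scale, each peak was ranked within its own list, from 0 to 100 for the highest score. The median rank of the 882 regions was 29.9, 23.6 and 16.7 at days 3, 7 and 80 after the partial-thickness wound and 37.3 at day 7 after the full-thickness wound. At day 80, 606 of them (68.7%) lay in the lowest 25% of the list and 37 (4.20%) above rank 50, and the highest rank was 71.6. Regions kept after both wounds ranked higher in each of these lists, with medians of 42.9, 35.9, 22.6 and 50.7. Regions kept in the day 80 full-thickness list alone also ranked higher, with 35.5 on day 3, 28.7 on day 7 and, in the day 7 full-thickness list, 44.9. Regions kept after neither wound ranked lower, with 24.1, 20.7 and 32.8 in the same lists. The day 80 peaks were also narrow, with a median width of 579 bp against 962 bp in all regions of that list, while their median fold enrichment of 8.79 was close to the 9.20 of all regions of that list.

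**Figure D2:**
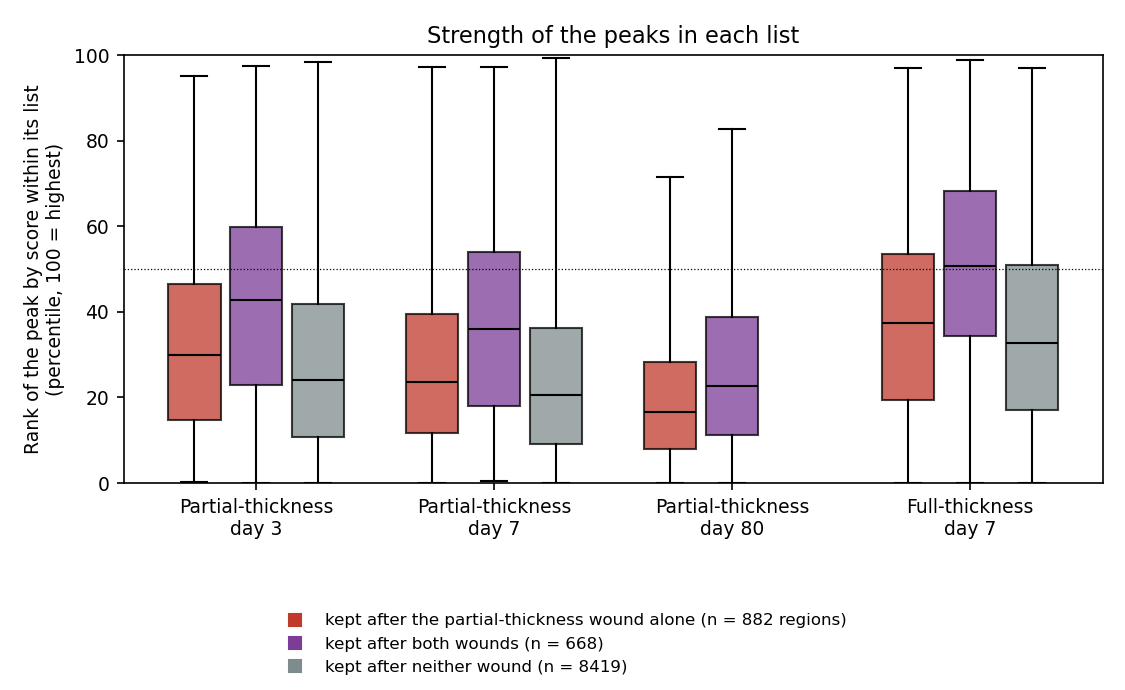
Rank of each peak by score within its own list (percentile, 100 the highest), for regions kept after the partial-thickness wound alone, after both wounds and after neither; boxes are quartiles with the median, whiskers the lowest and highest region, and the dotted line is rank 50. Regions kept after the partial-thickness wound alone have medians of 29.9, 23.6, 16.7 and 37.3 from left to right, between the other classes wherever all 3 are present.

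Of the 11234 early regions, 4363, 2994, 1542 and 329 had a peak in the lowest to the highest 25% of the day 3 list. Over these steps 7.04%, 8.55%, 8.63% and 6.38% were kept after the partial-thickness wound alone, with 21 regions in the highest step. Over the same steps, 3.51%, 6.78%, 10.4% and 16.1% were kept after both wounds, and 8.25%, 11.2%, 16.4% and 25.2% in the day 80 full-thickness list alone. Being kept by 1 list or by both is a division of the same regions, so these shares are not independent of each other. The whole day 80 partial-thickness list held 10.5%, 15.3%, 19.1% and 22.5% of them. The choice bars every region of the day 80 full-thickness list, and that list's share climbs over these steps, so the level course of the set follows in part from how it was chosen. Over the early regions that the day 80 full-thickness list did not hold, the set made up 7.97%, 10.4%, 11.8% and 10.9%, with an interval of 6.86 to 16.2% in the highest step. By rank at day 7 the steps held 3664, 2137, 937 and 152 early regions with a peak in that list. Kept after the partial-thickness wound alone were 9.50%, 10.5%, 9.50% and 7.24% of them, with 11 regions in the highest step. Of those the day 80 full-thickness list did not hold, the shares were 11.5%, 13.9%, 15.0% and 13.9%.

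The summits of most regions lay close together on the different days. In regions with a peak on both days, the day 80 summit lay a median of 24 bp from the day 3 summit, within 50 bp in 479 of 717 regions (66.8%) and within 100 bp in 628 (87.6%). From the day 7 summit it lay a median of 24 bp away, and within 100 bp in 616 of 672 (91.7%). For the free list, the day 7 full-thickness wound, the median was 24.5 bp and 565 of 638 summits (88.6%) lay within 100 bp. Over all regions that share a day 80 partial-thickness peak with these lists, 79.7%, 84.5% and 77.7% of summits lay within 100 bp. Narrow peaks leave summits less room to differ, and the part of peak width in this gap was not tested.

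Most of the regions had been open on both early days. Both the day 3 and the day 7 partial-thickness lists held 507 of the 882 (57.5%, 54.1 to 60.8%), day 3 alone 210 (23.8%) and day 7 alone 165 (18.7%). Among regions kept after both wounds the shares were 73.5%, 11.8% and 14.7%. Among regions kept after neither wound they were 37.0%, 45.0% and 17.9%. Among regions kept in the day 80 full-thickness list alone they were 60.8% (58.0 to 63.5%), 20.8% and 18.4%, close to those of the set. The set thus lay between regions kept after both wounds and after neither in how many were seen on both days. Its interval overlaps that of regions kept in the day 80 full-thickness list alone. Day 3 alone was the commonest pattern of the regions that were lost.

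The day 7 full-thickness list, which the choice left free, held 638 of the 882 regions (72.3%, 69.3 to 75.3%). It held 581 of 668 regions kept after both wounds (87.0%, 84.2 to 89.4%) and 4455 of 8419 kept after neither (52.9%, 51.8 to 54.0%). The 3 intervals do not overlap. The order was the same within each early pattern. For regions seen on days 3 and 7 the shares were 85.2% in the set, 92.5% for both wounds and 69.9% for neither. For day 3 alone they were 64.8%, 77.2% and 49.97%, and for day 7 alone 42.4%, 67.3% and 25.2%. The intervals of the set and of both wounds overlap for day 3 alone.

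The share was also taken by early strength. From the lowest to the highest 25% of the day 3 list, the day 7 full-thickness list held 67.4% (207 of 307), 84.4% (216 of 256), 93.2% (124 of 133) and 100% (21 of 21) of the 882 regions that had a day 3 peak. It held 45.9%, 67.4%, 80.6% and 95.9% of the regions kept after neither wound, and 77.1%, 91.6%, 98.1% and 100% of those kept after both. In the 3 lower steps the interval of the set lay above that of the regions kept after neither wound. In the highest step the set had 21 regions and its lower bound was 83.9%, so no difference was detectable there. By rank in the day 7 partial-thickness list the shares were 66.7%, 82.1%, 86.5% and 81.8% (9 of 11) in the set, 74.2%, 94.8%, 96.8% and 100% for both wounds, and 48.7%, 60.9%, 70.9% and 83.8% for neither. The set again stood above the regions kept after neither wound in the 3 lower steps, and in the highest, with 11 regions and an interval of 48.2 to 97.7%, it stood below them by less than its interval.

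**Figure D3:**
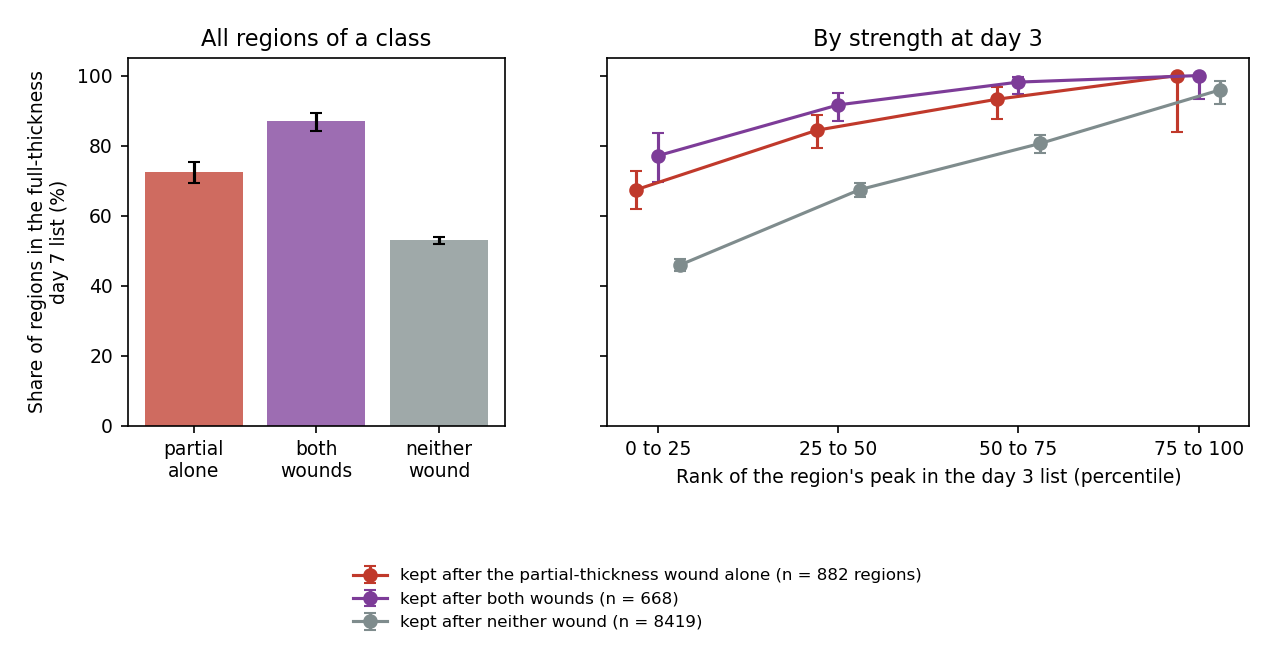
Share of regions (%) that the day 7 full-thickness list held, over all regions of a class (left) and by the rank of the region's peak in the day 3 partial-thickness list in steps of 25 percentiles (right), with exact 95% intervals of counting error. The classes stand at 72.3%, 87.0% and 52.9% on the left, and all 3 climb with day 3 rank on the right.

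The same rule was run on each of the 5 lists of days 0 and 80, as a yardstick for a list's own regions. Of 2583 regions that the day 80 partial-thickness list held and the other 4 did not, 882 (34.1%, 32.3 to 36.0%) were in an early partial-thickness list and 34.3% in the day 7 full-thickness list. For the day 80 full-thickness list the values were 48.3% and 47.1% of 2619 regions. For unwounded cells they were 26.4% and 8.64% of 7743 regions of the hair follicle list, 31.4% (28.9 to 34.1%) and 19.1% of 1269 regions of the day 0 epidermal list, and 16.5% and 12.7% of 1749 regions of the day 80 epidermal list. The share in an early partial-thickness list was thus close to that of the day 0 epidermal list, whose interval overlaps it, and above that of the day 80 epidermal list. The share in the day 7 full-thickness list was above those of the 3 unwounded lists.

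Among the regions of each list that were in an early partial-thickness list, the day 7 full-thickness list held 72.3% for the day 80 partial-thickness list and 78.7% for the day 80 full-thickness list. It held 29.4% for unwounded hair follicle cells, 47.4% (42.4 to 52.4%) for day 0 epidermis and 50.5% (44.6 to 56.4%) for day 80 epidermis. Both healed wounds lay above the 3 unwounded lists in this share.

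**Figure D4:**
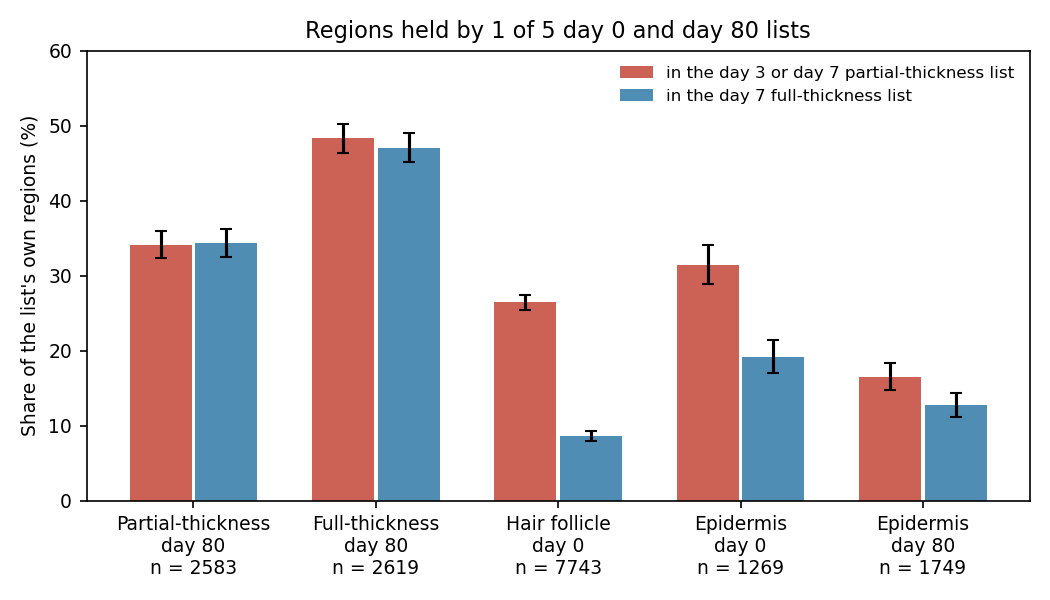
For each of the 5 lists of days 0 and 80, the share (%) of the regions it held without the other 4 that was in the day 3 or day 7 partial-thickness list (red) or in the day 7 full-thickness list (blue), with exact 95% intervals of counting error and the number of regions below. The day 80 partial-thickness bars are level at 34.1% and 34.3%, and the blue bars of the 3 unwounded lists reach at most 19.1%.

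In position, fewer of the regions lay over 50 kb from any protein-coding gene than of the early regions lost at day 80 or of all regions. The share within 1 kb of a gene end was above that of the lost regions and below that of all regions. Of the 882, 488 (55.3%) lay inside a protein-coding gene, near the 57.8% of all regions. Within 1 kb of a gene end lay 104 (11.8%, 9.74 to 14.1%), against 12.4% of regions kept after both wounds, 7.67% of those kept in the day 80 full-thickness list alone, 6.77% of those kept in neither, and 19.0% of all regions. No protein-coding gene lay within 50 kb of 74 (8.39%, 6.65 to 10.4%), against 10.5%, 18.6%, 18.5% and 16.5% of the same classes. The regions the day 80 partial-thickness list held alone among all 8 lists had 11.4% without a gene, and the 1116 held by the day 80 full-thickness list alone 18.5%. A low share was thus also found in other regions of the day 80 partial-thickness list, though it was not counted over that whole list. The part of that list's threshold or of the other differences between lists was not tested. A start site was at hand for the gene of 648 regions. The day 80 summit lay a median of 19263 bp from it, within 1 kb in 42 and within 10 kb in 207. It was upstream of the start in 205 and downstream in 443. Exon and intron positions were not analysed here.

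Each region was given to its nearest protein-coding gene, up to 50 kb away, which gave 765 genes for 808 regions. Most genes had 1 region (724), while 39 had 2 and 2 had 3. A nearest gene is a neighbour and not a shown target. The strongest regions, by mean rank over day 80 and the better early day, are described first.

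The region 5334 bp from Phactr4, which encodes a regulator of protein phosphatase 1 and actin, lay at chr4:132427780-132428739. Its −log10 p was 163, 137 and 61.3 at days 3, 7 and 80 after the partial-thickness wound and 122 at day 7 after the full-thickness wound. The region 13514 bp from Mgl2, a C-type lectin of macrophages, lay at chr11:70151056-70151716 and had 116, 76.7 and 63.6 on those days and 69.0 after the full-thickness wound. The region 6298 bp from Kif1b, a kinesin motor, lay at chr4:149314071-149314768 and had 55.6, 102 and 64.2, with 93.9 after the full-thickness wound. Within their lists they ranked at 64.7, 66.4 and 66.9 at day 80. At day 3 their ranks were 94.2 for the Phactr4 region and 79.8 for the Mgl2 region, against 28.6 for the Kif1b region, which ranked at 67.6 at day 7.

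A region inside Fgf2, which encodes a growth factor active in wound repair, lay at chr3:37353857-37355433, 6299 bp downstream of the start site. Its −log10 p was 107, 127 and 44.2 at days 3, 7 and 80 and 63.5 after the full-thickness wound at day 7. Fgf2 had 4 regions in all: 4, 3 and 1 of them on days 3, 7 and 80 of the partial-thickness wound, 1 in the day 7 full-thickness list, and 0 in the day 80 full-thickness list and the 3 unwounded lists. A region inside Tcf12, a helix-loop-helix transcription factor, had 94.3, 107 and 54.5 at days 3, 7 and 80 and 78.7 after the full-thickness wound. The other strongest regions lay near Spryd7, Vmn1r1, Zfp664 and Dennd2a, and at chr14:76780369-76781488, which had no protein-coding gene within 50 kb and holds the Gm30246 promoter printed above. Their −log10 p at day 80 was between 38.0 and 54.8.

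Above rank 50 at day 80 and on an early day lay 10 regions. They were near Kif1b, Mgl2, Phactr4, Tut7, Tcf12, Rbx1, Zfp664, Fbxo17 and Golga2, and at the Gm30246 promoter. All 10 were in both early partial-thickness lists and in the day 7 full-thickness list. Tut7 adds uridines to RNA ends, Rbx1 is the RING subunit of cullin ubiquitin ligases, and Golga2 is a matrix protein of the Golgi.

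The genes with most regions of the set were Arid1a and Eif4g3, with 3 each. Of the 39 genes with 2, the 8 named after them had the highest share of their own regions in the set, ties being taken by name. Csnk1e, Efcab5, Flrt1 and Tyro3 had 2 of 5 regions, as did the last of those named. Arid1a, a DNA-binding subunit of the BAF chromatin remodeller, had 7 regions in all. The partial-thickness wound had 5, 5 and 6 of them on days 3, 7 and 80 and the full-thickness wound 7 and 2 on days 7 and 80, against 3 in unwounded hair follicle cells, 0 in day 0 epidermis and 2 in day 80 epidermis. The 3 regions all lay inside the gene. The first, at chr4:133688232-133688986, had a −log10 p of 68.9 at day 3 and 30.2 at day 80, no peak at day 7, and 38.6 after the full-thickness wound. The second, at chr4:133746172-133746989, had 47.8 at day 7 and 35.3 at day 80, no peak at day 3, and 41.9 after the full-thickness wound. The third, at chr4:133751526-133752066 and 2265 bp from the start site, had 57.6, 60.5 and 40.2 at days 3, 7 and 80 and 56.2 after the full-thickness wound. The early days thus differed among the 3, while all of them were in the day 7 full-thickness list.

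Eif4g3, a scaffold of translation initiation, had 14 regions in all. The partial-thickness wound had 7, 6 and 11 of them on days 3, 7 and 80 and the full-thickness wound 12 and 6 on days 7 and 80, against 2, 3 and 6 in the hair follicle, day 0 and day 80 epidermal lists. Its 3 regions of the set had a −log10 p of 22.7, 28.0 and 26.0 at day 80. The first of them, 7845 bp outside the gene, had 110.1 at day 3 and 97.4 at day 7. It was a strong early peak that stayed as one of the weakest at day 80, at rank 5.20.

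Foxj1, the transcription factor of motile cilia, had 2 regions in all and both belonged to the set. Each of the 4 wound lists that could hold them had both, and the other 4 lists had neither, which the choice fixes for those lists. The region at chr11:116335081-116336157, which overlaps a gene end, had a −log10 p of 66.0, 61.2 and 33.0 at days 3, 7 and 80 and 80.9 after the full-thickness wound at day 7. The region at chr11:116318862-116319953, 10751 bp away from the gene, had 79.9, 72.3 and 29.5, with 71.1 after the full-thickness wound. Nfat5, a transcription factor of the response to salt stress, and Zfp90, a zinc finger protein, had 2 of their 4 regions each in the set. So did Letmd1 and Ppcdc, the second an enzyme of coenzyme A synthesis. Ccdc102a had 2 of 3, and Anapc13, a subunit of the anaphase-promoting complex, and Ap1b1, a subunit of a clathrin adaptor and unrelated to the AP-1 factors, had 2 of 5. Among the 7 genes after Foxj1 the day 80 −log10 p was between 22.2 and 41.4.

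**Figure D5:**
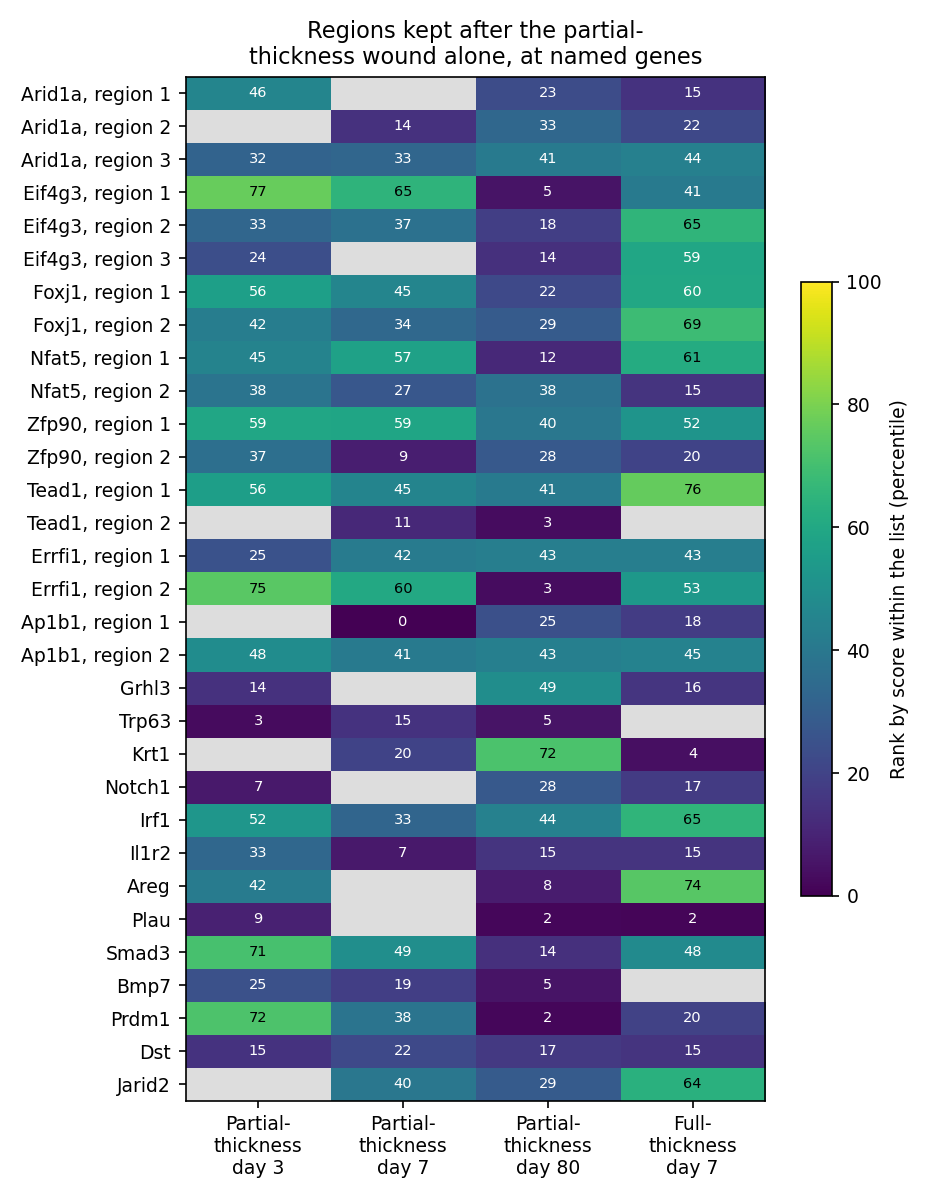
Rank by score within the list (percentile, colour and number) of regions kept after the partial-thickness wound alone at named genes, on days 3, 7 and 80 of the partial-thickness wound and day 7 of the full-thickness wound; grey marks a list with no peak, and regions of a gene are numbered by position. The Krt1 region stands at 71.6 at day 80 with 20.2 at day 7 and 3.91 after the full-thickness wound, while the first Eif4g3 and the second Errfi1 region are high early and at 5.20 and 3.39 at day 80.

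Of the 9301 early regions with a gene within 50 kb, 808 (8.69%) were in the set. The 22 gene lists of skin and wound biology drawn up for this work held 388 of those early regions, and 29 of them (7.47%) were in the set. Lists are described by such counts alone; most are small, and Areg and Notch1 stand in 2 lists each. At genes of chromatin regulators 5 of 18 early regions were in the set, at Hippo and cytoskeleton genes 5 of 44, at EGF receptor and MAP kinase genes 3 of 32, and at terminal differentiation genes 3 of 17. At genes of the wound epithelium the count was 2 of 28, for epidermal stem cells 2 of 25, for BMP and TGF-beta 2 of 20 and for Notch 2 of 23. It was 1 of 33 for inflammation, 1 of 12 for interferon, 1 of 15 for Wnt and hedgehog and 1 of 26 for keratinocyte adhesion. None of 35 early regions at hair follicle stem cell genes was in the set, none of 21 at AP-1 and stress genes, none of 16 at glycolysis and hypoxia genes and none of 13 at proliferation genes. The intervals of these shares reach up to 10.0%, 16.1%, 20.6% and 24.7%. These 4 intervals include the 8.69% of all early regions with a gene. That of the chromatin regulators (27.8%, 9.69 to 53.5%) lies above it, but this was 1 of 22 lists and 3 of its 5 regions lay at Arid1a. The day 80 full-thickness list held 5 of the 35, 4 of the 21, 8 of the 16 and 2 of the 13, against 1628 of all 9301. The day 80 partial-thickness list, counting also regions kept after both wounds, held 1, 0, 5 and 2 of them, against 1406 of all 9301.

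The chromatin list rested on 3 regions of Arid1a, 1 of Arid1b, the partner subunit that can replace Arid1a, and 1 of Jarid2, a cofactor of Polycomb repressive complex PRC2. The Arid1b region had a −log10 p of 47.4 at day 7 and 27.3 at day 80, and was in neither the day 3 list nor the day 7 full-thickness list. The Jarid2 region had 66.7 at day 7, 32.9 at day 80 and 74.9 after the full-thickness wound, with no peak at day 3. Of the 5, 2 were thus in the day 3 list.

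Among signalling genes, Errfi1, a feedback inhibitor of the EGF receptor, had 2 of its 10 regions in the set, 27632 and 15586 bp from the gene. The first had a −log10 p of 53.3, 68.4 and 41.1 at days 3, 7 and 80 and 55.7 after the full-thickness wound. The second had 106, 90.4 and 22.1, with 64.3 after the full-thickness wound. The nearer region was the stronger early and the weaker at day 80. A region 8069 bp from Areg, an EGF receptor ligand, had 65.5 at day 3, none at day 7, 23.6 at day 80 and 87.9 after the full-thickness wound. Smad3, which carries the TGF-beta signal to the nucleus, had a region 35520 bp away with 99.9, 76.6 and 26.0 at days 3, 7 and 80 and 59.5 after the full-thickness wound. A region inside Bmp7, a BMP ligand, had 53.2, 50.3 and 22.7 and was not in the day 7 full-thickness list. These 3 regions were near the bottom of the day 80 list, at ranks between 5.20 and 13.9.

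Tead1, the DNA-binding partner of the Hippo effector Yap, had 2 of its 16 regions in the set, both inside the gene. The one at chr7:112696921-112697612 had 79.5, 72.2 and 40.2 at days 3, 7 and 80 and 90.9 after the full-thickness wound. The other, at chr7:112762811-112763504, had 46.1 at day 7 and 22.1 at day 80 and was in neither the day 3 list nor the day 7 full-thickness list. Regions at Myh9, the heavy chain of a non-muscle myosin, and Tln1, which links integrins to actin, had 22.1 and 21.7 at day 80. A region inside the Notch1 receptor gene had 43.0 at day 3, 32.6 at day 80 and 39.8 after the full-thickness wound, and one inside Maml3, a Notch co-activator, had 41.0 at day 3 and 35.8 at day 80. Neither was in the day 7 partial-thickness list. The region near Fzd2, a Wnt receptor, had 56.0 at day 7 and 31.8 at day 80, with 35.7 after the full-thickness wound.

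At epidermal genes, the region with the highest −log10 p of the set at day 80 lay 9940 bp from Krt1, the keratin of the suprabasal layers, at chr15:101834849-101835486. It had 51.4 at day 7 and 70.5 at day 80 after the partial-thickness wound, no peak at day 3, and 33.8 at day 7 of the full-thickness wound. It was 1 of 2 regions of Krt1, and the other was in the unwounded day 80 epidermal list alone. A region over the end of Grhl3, a transcription factor of barrier formation and epidermal closure, lay at chr4:135572348-135573777, with its summit 410 bp downstream of the start site. It had 46.9 at day 3, no peak at day 7, 45.7 at day 80 and 38.9 after the full-thickness wound. Its rank was 14.3 at day 3 and 48.9 at day 80, so like the Krt1 region it ranked higher within the healed list than within the early one. By gaps in the peak numbers, 32.8%, 34.4% and 54.2% of the partial-thickness calls were kept at days 3, 7 and 80. Ranks in these lists are thus not on the same scale, and the part of the unequal cuts in both rises was not tested. A region inside Trp63, which encodes the p63 factor that keratinocytes depend on, had 41.0, 48.0 and 22.7 at days 3, 7 and 80 and was not in the day 7 full-thickness list. A region 45647 bp from Prdm1, a repressor that acts in terminal differentiation, had 102, 65.5 and 21.7, with 41.2 after the full-thickness wound. One inside Dst, a plakin of hemidesmosomes, had 47.1, 52.6 and 27.2, with 38.7 after the full-thickness wound.

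Among inflammation and interferon genes, a region 24745 bp from Irf1, an interferon-induced transcription factor, had 75.7, 60.2 and 42.0 at days 3, 7 and 80 and 76.9 after the full-thickness wound. A region inside Il1r2, the decoy receptor of interleukin 1, had 58.8, 43.6 and 26.4, with 38.7 after the full-thickness wound. A region 30033 bp from Plau, the urokinase that wound keratinocytes secrete, had 44.0 at day 3 and 21.7 at day 80, with 32.8 after the full-thickness wound. At endothelial genes, 3 of 18 early regions were in the set, inside Pecam1 and Vwf and 3112 bp from Flt1, with a day 80 −log10 p of 21.04, 26.3 and 29.5 and none in the day 7 full-thickness list. Of the 4 endothelial markers, Pecam1 had 7 regions in the day 80 partial-thickness list, against 7 for the healed full-thickness wound and 6 for unwounded epidermis of that day. Tek had 2, against 0 in each of those lists. Cdh5 had 0 in all 3 of these lists and Kdr 0 in all 8. The part of endothelial cells in these 3 regions was not tested. No region of the set lay at the listed immune, fibroblast, melanocyte or muscle genes, with 0 of 5, 0 of 1, 0 of 3 and 0 of 1 early regions, nor at the 5 of housekeeping genes.

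The set was spread over the autosomes and both sex chromosomes. Its share of the early regions was highest on chromosome 11 with 83 of 790 (10.5%), on chromosome 15 with 10.1% and on chromosome 4 with 76 of 754 (10.1%), and lowest on chromosome 16 with 4.33%. On the X chromosome it was 8 of 125 (6.40%). Both early regions of the Y chromosome were in the set, at chrY:1009985-1011181 over the start of Eif2s3y and at chrY:1218449-1218894 inside Uty. Both had a peak at day 3, with a −log10 p of 47.1 and 48.2, and at day 80, with 35.0 and 27.2. Neither was in the day 7 partial-thickness or the day 7 full-thickness list. After the partial-thickness wound, days 3 and 80 had 3 Y peaks each, the hair follicle and day 0 epidermal lists had 1 each, and the other 4 lists none. The labels do not state the sex of the animals, so the wound and the sex of the pooled animals cannot be told apart at these 2 regions. Without the X and Y chromosomes the set had 872 regions, of which the day 7 full-thickness list held 72.8%.

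At the edge of the rule, the 5 regions with the lowest −log10 p at day 80 lay at Pecam1, Kcmf1, Grhl1, Capn8 and Rps27l, with 21.04, 21.05, 21.15, 21.17 and 21.18, where the list itself ends. The Kcmf1 region had 79.4 and 74.7 at days 3 and 7 and 59.0 after the full-thickness wound, and the Grhl1 region 52.6 at day 3 alone. Just outside, 668 regions failed by the day 80 full-thickness list alone, 364 by the hair follicle list alone, 240 by the day 0 epidermal list alone and 240 by the day 80 epidermal list alone. Their lowest −log10 p in the list that shut them out was 8.005, 17.4, 13.6 and 7.86, and the medians were 12.3, 26.9, 18.3 and 10.6. Of the 25587 regions in the day 80 and an early partial-thickness list, 15038 (58.8%) were in all 4 of the other lists and 882 (3.45%) in none. A peak of 1 of those 4 lists lay within 500 bp of 6 regions of the set, within 1 kb of 23 (2.61%) and within 5 kb of 208 (23.6%), and the nearest such peak was a median of 9.44 kb away.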

How the data were processed

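The data analysed were 8 deposited peak lists of narrowPeak layout, 1 for each group of the 24 samples. The tools, without role or order, were bedtools 2.29.2, MACS2 2.1.1.20160309, Picard and Bowtie, on mm10, per the submitters' processing notes. The sources used here do not say whether the reads of a group were pooled. The authors' score of a peak was 10 times its −log10 q in at least 99.99% of the peaks of each list. Its deposited fold enrichment is a ratio to local background. The deposited −log10 p and −log10 q are likewise values of single peaks. Values of different lists are printed side by side but are not levels on a common scale. By gaps in the authors' peak numbers, 32.8% (partial-thickness, day 3) to 82.5% (full-thickness, day 80) of the calls were kept, so a weak region may be missing from a list because of its threshold.

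Peaks were joined and matched in Python 3.11.15 with pandas 2.3.3, and intervals came from scipy 1.17.1. The joining and the counting were tested on simulated peaks. Ranks are percentiles of the score within a list. Of the 21900 protein-coding genes in a GRCm38.p6 table of RefSeq, each region took the nearest within 50 kb. Promoter windows were those of RefSeq, 32851 windows of 27025 gene symbols, and held a start site for 17492 of the protein-coding genes. A planned search for AP-1 letters around every day 80 summit was left out, since no genome was at hand; the promoter windows were taken in its place after the data had been seen.

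Named genes were the 10 with the most regions of the set (ties went to genes with fewer other regions, then by name), up to 3 genes of each gene list, the genes of the 10 strongest regions by mean rank, and those of the 5 weakest at day 80. Jarid2 and the other genes outside the first rule come from the lists. The genes of promoters come from the highest scores and from the AP-1 letters, and the 10 regions above rank 50 from an alternative planned as a stricter threshold. The regions, the gene lists and the comparisons were chosen with earlier results of these data known. Alternatives changed the overlap that counts, the length of the lists, the threshold, the early days required, each excluding list in turn, the joining distance and the gene window.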

Additional observations from a re-analysis of the deposited data

How the results depend on the processing

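The set rests on presence calls, and its size moved with 4 of the planned settings: 2966 regions when a list had to cover 50% of a region, 507 when both early days were required, 1550 when the day 80 full-thickness list no longer excluded, and 10 above rank 50. The share in the day 7 full-thickness list was 79.1%, 85.2%, 78.6% and 100% under these settings, and 66.1% of the 611 regions that lists cut to an equal length gave. By day 3 rank, an alternative added after seeing the data, it was 67.4%, 84.4%, 93.2% and 100%. It stayed above the 52.9% of all regions kept after neither wound in all of them. The matched share of that class was 69.9% where both early days were required. By day 3 rank it was 45.9%, 67.4%, 80.6% and 95.9%, with no detectable difference in the highest step. For the other settings the share of that class was not recomputed. The share near a gene end was 22.3% under 50% cover, 26.6% within 5 kb, and 0% of the 10 strong regions. AP-1 letters were in 34.4% of windows that held the summit, a choice also added after seeing the data, and in 17.7% as TGACTCA. The cause of these changes was not tested. The other 23 of 40 alternatives to these results moved by less than the counting interval, or by less than 1.5 times for a count. Among them were 1246 regions without the hair follicle list and 876 with peaks within 500 bp joined. Leaving out the day 0 or the day 80 epidermal list alone gave 1122 regions each time. Of 100 recounts of regions at named genes, 77 were close to the first count and 23 moved by over 1.5 times. No paired analysis was possible because each group has 1 list and its columns carry no replicate number, and for the same reason no replicate could be left out. The AP-1 search around summits and its variants were not run, as they need genome sequence. Thresholds that differ between lists and unknown depth limit what absence from a list can mean: it is the absence of a deposited peak.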
